A study of Homo sapiens with 3 samples.

Results

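The genes described here are 49 human genes that encode enzymes and subunits acting on histones and nucleosomes, examined in H2087, an established lung adenocarcinoma cell line. They are given by name, under a rule that uses no measured value, although earlier results of these data were known when the list was made, and they form 9 role groups out of 20163 annotated protein-coding genes. Chromatin immunoprecipitation followed by sequencing was carried out on untreated cells with an antibody against histone H3 trimethylated at lysine 4 (H3K4me3) or acetylated at lysine 27 (H3K27ac), and a further library was input chromatin, which was not analysed here. Each mark had 1 library of 1 cell line (n = 1), so that no value has a replicate error, no test was possible, and all values are descriptions of these libraries.

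H3K4me3 is deposited at the starts of many active or poised genes by the KMT2 and SETD1 methyltransferases, which work inside COMPASS complexes built on a shared core of WDR5, RBBP5, ASH2L and DPY30, and it is removed by the KDM5 demethylases. H3K27ac lies at active promoters and enhancers, is written chiefly by the acetyltransferases EP300 and CREBBP, and is erased by histone deacetylases. Bromodomain proteins such as BRD2 bind acetylated histones, SWI/SNF complexes slide or evict nucleosomes, and Polycomb repressive complex 2 (PRC2) methylates the same lysine 27. The question addressed was which genes of this machinery carry the marks that it sets, and where.

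The deposited lists held 18585 distinct H3K4me3 and 24096 distinct H3K27ac intervals, with median widths of 305 and 284 bp. Every interval has a score, read from the numbers as the −log10 q of its strongest summit, where q is the false discovery rate of the peak caller. The median score was 2.97 for H3K4me3 and 2.65 for H3K27ac, and scores are compared only within a list. Many intervals had the same score, so ranks are coarse. The most frequent score of the whole list was 1.55 for H3K4me3 and 2.82 for H3K27ac. Over the 49 genes these values were found at 5 of 125 and 8 of 131 intervals. The lists give no read counts. The depth is unknown, and a start without an interval cannot be told from a start with too few reads. Among 9 epithelial and lung markers, 6 had H3K4me3 at the start (KRT7, KRT8, KRT18, EPCAM, CDH1 and NKX2-1), whereas NAPSA, SFTPB and SFTPC, markers of alveolar type II cells, had neither mark there. Among markers of other cells, PTPRC, CD3E, COL1A1 and VIM had neither mark at the start.

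The outermost 5′ base of a gene in GENCODE release 44, mapped to hg19, served as its start, which was called marked when the edge of an interval lay within 1 kb. H3K4me3 marked 24 of the 49 starts (49%), against 38.2% of all protein-coding genes. H3K27ac marked 15 (30.6%), against 23.6%. Both marks were found at 10 starts (20.4%, background 18.6%) and neither at 20 (40.8%, background 56.8%). H3K27ac without H3K4me3 was found at 5 (10.2%, background 4.99%). H3K4me3 alone was found at 14 starts (28.6%, against 19.6% of all genes). At these outer starts the share with both marks was close to that of all genes. At the starts of the canonical transcripts this share was 26.5%, against 20.4% of all genes. With every transcript start counted it was 51.0% against 25.3%, but there the marks of a gene could lie at different starts. Genes with more annotated transcript starts also have more places to be counted. Where H3K4me3 was present, 41.7% of the starts also had H3K27ac, compared with 48.6% over all genes.

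The 10 starts with both marks were those of KMT2D, SETD1B, MEN1, KDM5B, KDM1A, CREBBP, KAT2A, HDAC1, HDAC3 and EZH2. H3K4me3 alone marked KMT2A, KMT2B, DPY30, KDM2A, KDM6B, KAT5, KAT6A, KAT6B, KAT7, HDAC5, HDAC9, SIRT1, ARID2 and SUZ12. H3K27ac alone marked SETD1A, RBBP5, KDM4B, BRD2 and SMARCB1. The remaining 20 starts had neither mark. They were those of KMT2C, WDR5, ASH2L, CXXC1, KDM5A, KDM2B, KDM4A, EP300, KAT2B, KAT8, HDAC2, HDAC4, HDAC7, BRD3, SMARCA2, SMARCA4, ARID1A, ARID1B, PBRM1 and EED.

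**Figure D1:**
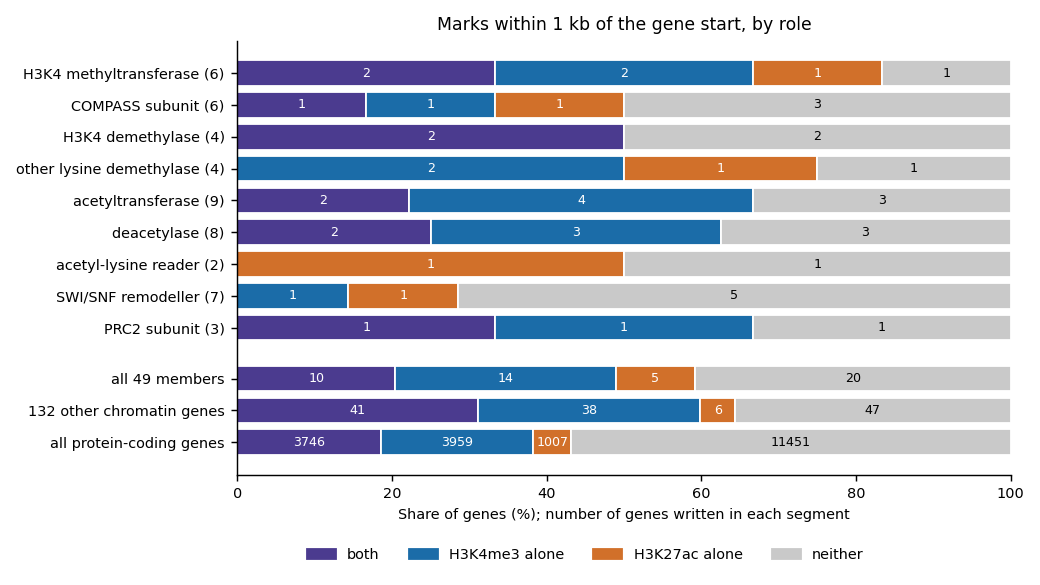
Share of genes (x axis, %) with both marks, H3K4me3 alone, H3K27ac alone or neither mark within 1 kb of the start, for the 9 role groups (number of genes in parentheses), the 49 genes together, 132 other chromatin genes and all protein-coding genes, with the number of genes written in each segment. The SWI/SNF group has the longest grey segment, 5 of 7 genes with neither mark.

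At marked starts the median of the highest score was 4.72 for H3K4me3 (interquartile range 3.68 to 5.82), above the 3.76 of all marked protein-coding genes. For H3K27ac it was 3.17 (1.91 to 3.50), close to the 3.05 of all marked genes. The median length under H3K4me3 intervals at a marked start was 647.5 bp against 484 bp over all genes, while the median under H3K27ac was 292 bp against 360 bp. By these medians H3K4me3 at these starts was higher in score and longer than at marked genes in general, and H3K27ac was shorter. At the marked starts among 132 other chromatin genes the H3K4me3 medians were 3.62 and 460 bp, below those of all genes. The score is the highest, and the length the sum, over all whole intervals that reach the window. Starts with more intervals can thus have higher values.

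**Figure D2:**
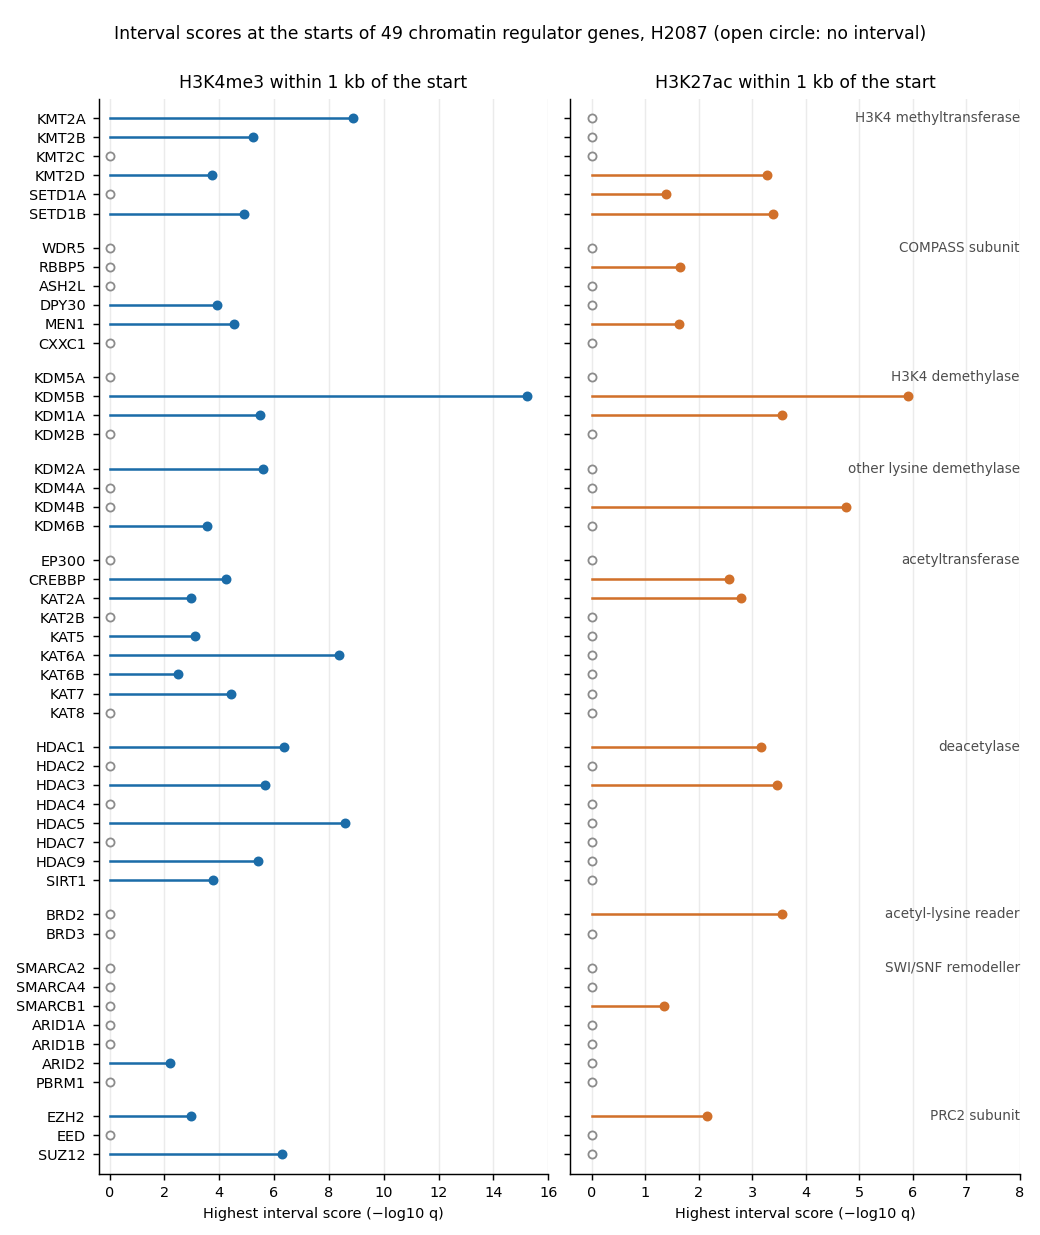
Highest score (−log10 q) of the H3K4me3 intervals (left) and H3K27ac intervals (right) within 1 kb of each of the 49 gene starts, by role, from 1 library per mark, with an open circle at 0 where no interval was found. KDM5B stands highest on both sides, at 15.2 and 5.92.

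The sequence before the start was compared between the classes, because promoters rich in CpG dinucleotides are known to carry H3K4me3 often. In the 250 bases before the start, the 49 genes had a median of 21 CpG, against 14 over all protein-coding genes, and 40 of them (81.6%, against 60.4%) had at least 10. Among genes with at least 10 CpG, H3K4me3 marked 23 of 40 (57.5%), near the 54.6% of all such genes, and H3K27ac marked 12 of 40 (30%), near the 32.0% of all such genes. The gap in H3K4me3 between the 49 genes and all genes was thus narrower among CpG-rich starts. The median was 20 CpG for starts with both marks, 28 for H3K4me3 alone, 20 for H3K27ac alone and 17.5 for neither. Over all genes the corresponding medians were 21, 20, 15 and 7. Starts with neither mark ranged from 1 CpG at EED to 45 at SMARCA4, so a start without an interval was CpG-poor in some of these genes and very CpG-rich in others.

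For each class 1 sequence is shown, read 5′ to 3′ on the strand of the gene from the hg19 genome and ending just before the start, with CpG in capitals. Both marks are represented by KDM5B (chr1:202777616-202777865, minus strand, 19 CpG), H3K4me3 alone by KMT2A (chr11:118306921-118307170, plus strand, 30 CpG) and H3K27ac alone by KDM4B (chr19:4968874-4969123, plus strand, 36 CpG), which have the highest scores of their classes. SMARCA4 (chr19:11071358-11071607, plus strand, 45 CpG) was taken, after its value was seen, as the most CpG-rich gene with no interval. None of these stretches overlaps an annotated exon.
KDM5B: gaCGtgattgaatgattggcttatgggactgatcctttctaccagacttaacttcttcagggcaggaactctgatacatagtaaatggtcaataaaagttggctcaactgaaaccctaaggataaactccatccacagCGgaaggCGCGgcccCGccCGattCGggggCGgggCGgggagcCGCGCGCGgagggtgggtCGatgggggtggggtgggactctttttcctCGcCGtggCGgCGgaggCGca
KMT2A: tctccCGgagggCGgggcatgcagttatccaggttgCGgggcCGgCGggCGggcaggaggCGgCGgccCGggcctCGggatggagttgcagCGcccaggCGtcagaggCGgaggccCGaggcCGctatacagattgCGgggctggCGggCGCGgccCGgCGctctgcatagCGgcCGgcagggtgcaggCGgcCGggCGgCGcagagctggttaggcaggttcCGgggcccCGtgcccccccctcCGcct
KDM4B: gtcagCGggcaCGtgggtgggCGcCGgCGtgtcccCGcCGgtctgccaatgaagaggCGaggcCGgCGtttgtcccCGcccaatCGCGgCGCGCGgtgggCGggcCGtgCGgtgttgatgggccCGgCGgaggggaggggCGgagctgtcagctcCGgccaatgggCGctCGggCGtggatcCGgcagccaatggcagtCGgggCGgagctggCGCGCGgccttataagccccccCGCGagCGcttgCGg
SMARCA4: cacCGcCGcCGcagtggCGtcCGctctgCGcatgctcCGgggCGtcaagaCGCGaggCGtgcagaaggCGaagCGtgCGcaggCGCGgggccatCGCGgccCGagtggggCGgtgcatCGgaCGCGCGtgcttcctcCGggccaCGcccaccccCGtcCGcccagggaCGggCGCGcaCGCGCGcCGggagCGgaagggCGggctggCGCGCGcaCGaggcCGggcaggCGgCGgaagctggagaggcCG
In KDM5B nearly all CpG lie in the part nearer the start, whereas in KMT2A, KDM4B and SMARCA4 they run through the whole stretch.

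**Figure D3:**
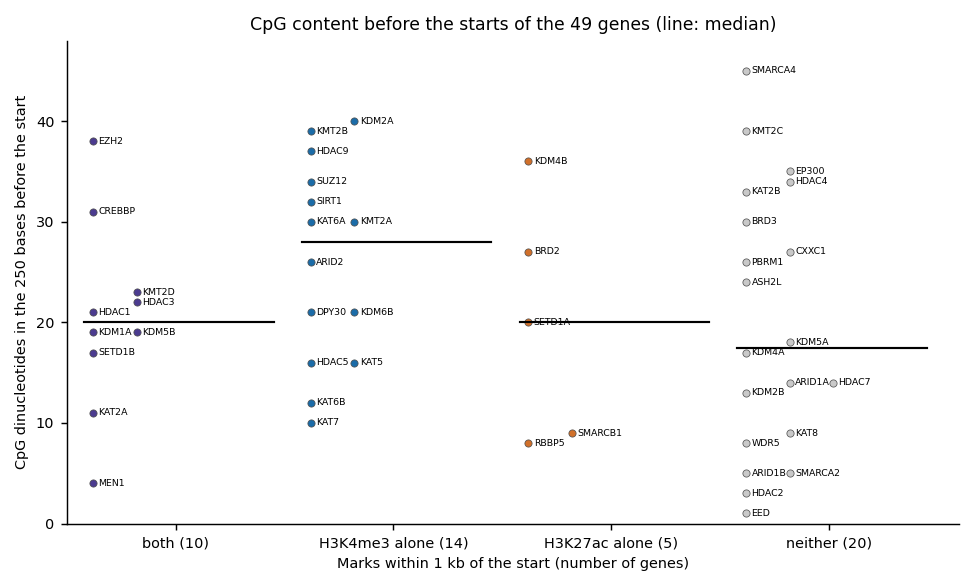
Number of CpG dinucleotides in the 250 bases before each of the 49 gene starts (y axis), by the marks within 1 kb of the start (x axis), with a point per gene and a line at the median. The neither class spans 1 (EED) to 45 (SMARCA4), and SMARCA4 lies above every marked gene.

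Short promoter motifs were counted on both strands of the same 250 bases. The Sp/KLF motif GGGCGG was present in 27 of the 49 (55.1%, against 48.7% of all genes), and CCAAT, the NF-Y motif, in 13 (26.5%, against 33.1%). The E-box CACGTG occurred in 7 (14.3%, against 7.17%), namely KMT2D, KDM4B, KAT5, KAT6A, HDAC4, SIRT1 and PBRM1. TATAAA was found in 1 (2.04%, against 10.1%), the start of EED, and the ETS motif CCGGAAG in 1 (2.04%, against 8.94%), that of KDM2B. The AP-1 motif TGACTCA occurred in 2, SETD1A and SMARCB1 (4.08%, against 3.34%). The NRF1 motif GCGCATGCG, the YY1 motif GATGGCGG and the cyclic AMP response element TGACGTCA occurred in 0, against 1.84%, 1.13% and 1.88% of all genes. None of the motifs contains another, and all but the NF-Y, TATA and AP-1 motifs contain a CpG themselves. A match is only a match of letters.

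Among the 6 H3K4 methyltransferases, the catalytic subunits of COMPASS complexes, 4 starts had H3K4me3 and 3 had H3K27ac. These are 66.7% and 50% of a small group, against 38.2% and 23.6% of all protein-coding genes. KMT2A, the gene rearranged in many acute leukaemias, had the highest H3K4me3 score of the group, 8.88, above 97.8% of the list. This score belonged to a 1297 bp interval with 2 summits, upstream of the gene at chr11:118305168-118306464, and a further interval of 558 bp with a score of 4.79 overlapped exon 1. Together they covered 1855 bp, the longest H3K4me3 at any of the 49 starts, with the part of the upstream interval beyond 1 kb counted as well. The nearest H3K27ac interval, 189 bp wide with a score of 2.45, lay 1375 bp downstream in an intron and inside an H3K4me3 interval, just beyond the window. KMT2B had H3K4me3 over exon 1 (482 bp, 5.22) and its nearest H3K27ac 2124 bp upstream.

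KMT2D, an enhancer-associated H3K4 methyltransferase often mutated in cancer, had an upstream H3K4me3 interval (561 bp, 3.72) and, over exon 1, a 250 bp H3K4me3 interval (1.43) lying within a 281 bp H3K27ac interval (3.27). Its close relative KMT2C had no interval of either mark over the gene or its 10 kb flanks, and the nearest of each lay 26.6 and 26.7 kb from the start. SETD1B, a catalytic subunit of the main H3K4 trimethylation complexes, had H3K4me3 across the start itself (773 bp with 3 summits, 4.91) and 535 bp of H3K27ac (3.40) that shared 460 bp with it. The start of RHOF lies within 1 kb of it, so these intervals belong to both starts. SETD1A, the other such subunit, had a weak H3K27ac interval upstream (267 bp, 1.39, above only 1.66% of the list). It also had a strong H3K4me3 interval of 553 bp over exon 2 at chr16:30969667-30970219 (9.76, above 98.5% of the list), which began 1052 bp from the outer start and so fell outside the window.

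Of the 6 COMPASS subunits, 2 starts had H3K4me3 (33.3%, against 38.2% of all genes) and 2 had H3K27ac (33.3%, against 23.6%). MEN1, which encodes menin, the tumour suppressor that tethers KMT2A and KMT2B complexes to chromatin, had the highest H3K4me3 score of the group, 4.53, in a 594 bp interval over exons 1 and 2 with 287 bp of H3K27ac (1.63) wholly inside it. DPY30, a core subunit, had H3K4me3 (428 bp, 3.90) over exons 2 and 3. RBBP5, another core subunit, had 400 bp of H3K27ac (1.66) in an intron 186 bp from the start, and its nearest H3K4me3 was 88.6 kb away. WDR5, the core scaffold, had neither mark at the outer start but both near the canonical start 717 bp further on, H3K27ac with a score of 2.62 and H3K4me3 with 2.61. ASH2L, the remaining core subunit, had a lone upstream H3K4me3 interval of 361 bp (1.93) that ended 1177 bp from the start. CXXC1, whose protein binds unmethylated CpG and recruits SETD1 complexes, had no interval nearer than 6.41 kb, and the intervals there, of both marks, lay at the start of MBD1.

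The 4 genes grouped here as H3K4 demethylases divided evenly, with both marks at KDM5B and KDM1A and neither at KDM5A and KDM2B. Over all protein-coding genes, 18.6% of starts had both marks and 56.8% neither. KDM5B, which removes H3K4 trimethylation, had the highest scores of all 49 genes for both marks. Its H3K4me3 interval, 882 bp with 2 summits at chr1:202776900-202777781, spanned the start and exon 1 with a score of 15.2, above 99.7% of the list. The H3K27ac interval, 1438 bp with 3 summits at chr1:202776099-202777536, had a score of 5.92, above 95.2% of its list, and was the longest H3K27ac at any of the 49 starts. The intervals shared 637 bp. They lie next to the KDM5B sequence shown with its class, which the H3K4me3 interval enters by crossing the start. A further overlapping pair lay 2468 bp upstream (H3K4me3 5.07, H3K27ac 2.16).

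KDM5A, the close relative of KDM5B, had no interval over the gene or its flanks, with the nearest H3K4me3 at 12.4 kb and the nearest H3K27ac at 183 kb, although its start is shared within 1 kb by that of CCDC77. KDM1A, the flavin-dependent demethylase LSD1, had 486 bp of H3K4me3 (5.47) and 317 bp of H3K27ac (3.55) over exon 1, the latter wholly inside the former. KDM2B, which recruits a Polycomb complex to CpG islands, had a 909 bp H3K4me3 interval over exon 2 (5.26) and a 700 bp H3K27ac interval (2.29), whose edges lay 1390 and 1169 bp from the start, just outside the window.

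Among the other lysine demethylases, KDM2A, an H3K36 demethylase, had 3 H3K4me3 intervals at the start covering 1172 bp, with a highest score of 5.61. KDM6B, which removes H3K27 methylation, had a 958 bp H3K4me3 interval (3.54) in an intron, and a 211 bp H3K27ac interval inside it (1.39) missed the window at 1019 bp. KDM4B, an H3K9 demethylase, had the second highest H3K27ac score of all 49 starts, 4.76 (209 bp at chr19:4969654-4969862, in an intron), with further intronic H3K27ac intervals beginning 2042, 3183 and 6425 bp from the start. Its nearest H3K4me3 was 56.1 kb away, with 36 CpG before its start. KDM4A had neither mark at the start and a lone H3K4me3 interval in the downstream flank (2.93).

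At the 9 acetyltransferase genes, 6 starts had H3K4me3 and 2 had H3K27ac. H3K4me3 was also the more frequent mark over all protein-coding genes (38.2% against 23.6%). KAT6A, the MYST-family acetyltransferase MOZ, had the highest H3K4me3 score of the group, 8.36, in a 412 bp intronic interval 802 bp from the start, with no H3K27ac over the gene. Its relative KAT6B had 2 H3K4me3 intervals covering 733 bp with a highest score of 2.49, and H3K4me3 at KAT7 reached 4.43 and at KAT5 3.11. CREBBP had H3K4me3 and H3K27ac intervals both upstream and in an intron. They covered 955 and 420 bp, all of the H3K27ac lay under H3K4me3, and the highest scores were 4.24 and 2.57. KAT2A, the GCN5 acetyltransferase, had nearly coincident intervals over exon 1, 295 bp of H3K4me3 (2.97) and 292 bp of H3K27ac (2.79), which shared 283 bp.

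The other acetyltransferases with neither mark were EP300, KAT2B and KAT8. EP300, the partner of CREBBP in writing H3K27ac, had no interval of either mark nearer than 70.3 kb, with 35 CpG before its start. KAT2B, the relative of KAT2A known as PCAF, had no H3K4me3 nearer than 145 kb and no H3K27ac within 2 Mb. KAT8, which acetylates H4K16, had its nearest H3K27ac 3.82 kb upstream and 6 H3K27ac intervals over gene and flank, the strongest of which (889 bp, 4.21) overlapped exons 7 to 9.

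Of the 8 deacetylase genes, 5 starts had H3K4me3 (62.5%, against 38.2% of all genes) and 2 had H3K27ac (25%, against 23.6%). HDAC5, a class IIa deacetylase, had the highest H3K4me3 score of the group, 8.61, in a 755 bp interval with 2 summits over exon 1, and no H3K27ac nearer than 8.57 kb. HDAC1, a class I deacetylase, had H3K4me3 intervals over exon 1 (270 bp, 1.88) and in an intron (378 bp, 6.35), and H3K27ac upstream (254 bp, 1.89) and over exon 1 (406 bp, 3.17), where both marks began at the same base and shared 270 bp. HDAC3, the deacetylase of the NCoR complexes, had 1460 bp of H3K4me3 on either side of the start (highest score 5.66) and 292 bp of H3K27ac across the start (3.46), with only 62 bp shared. The start of RELL2 lies within 1 kb of it. HDAC9 had 2 H3K4me3 intervals at the outer start (682 bp, 5.43) and none at its canonical start 408800 bp further on. SIRT1, an NAD-dependent deacetylase, had 249 bp of H3K4me3 over exon 1 (3.76).

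Among the deacetylases with neither mark at the outer start, HDAC2 had 2 H3K4me3 intervals at its canonical start, 40160 bp further on, with a highest score of 4.54 and no H3K27ac nearer than 657 kb. HDAC7 had overlapping intervals of both marks 3333 and 3422 bp downstream of the outer start, over another transcript of the gene, with scores of 7.77 for H3K27ac and 7.41 for H3K4me3, and a weaker H3K4me3 interval (2.26) at the canonical start. HDAC4 had no H3K4me3 within 84.1 kb of its start, and is described with the intervals away from starts.

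BRD2 had H3K27ac upstream (231 bp, 3.55) and an H3K4me3 interval 1090 bp upstream, outside the window. Stronger H3K4me3 (691 bp, 5.47) lay over exon 2, 4168 bp into the gene, where it overlapped H3K27ac (412 bp, 2.82). The start of HLA-DMA lies within 1 kb of the BRD2 start and of its H3K27ac interval. BRD3 had a 256 bp H3K27ac interval (3.55) 1460 bp downstream of the outer start and within 1 kb of the canonical start, and no H3K4me3 nearer than 42.3 kb.

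Of the 7 SWI/SNF genes, 2 had a marked outer start, the smallest share of the 9 role groups at that start. The other 5 had neither mark there (71.4%, against 56.8% of all genes). H3K4me3 marked ARID2 (288 bp, 2.21, the lowest score of the 24 starts) and H3K27ac marked SMARCB1 (207 bp, 1.36, the lowest of the 15). The genes of the ATPase subunits, SMARCA4 (BRG1) and SMARCA2 (BRM), had no interval over gene and flank. For SMARCA4 the nearest H3K4me3 was 242 kb and the nearest H3K27ac 62.9 kb away, and for SMARCA2 these were 1003 kb and more than 2 Mb. ARID1A, the gene of a large DNA-binding subunit, had neither mark at the outer start, but at the canonical start 2779 bp further on it had 3 H3K4me3 intervals (highest 2.97) and 1 H3K27ac interval over exon 1 (4.45). ARID1B had H3K27ac over exon 1 at the canonical start (292 bp, 3.04), and its nearest H3K4me3 was 246 kb away. PBRM1, a subunit of the PBAF form, had 1 interval over gene and flank, H3K4me3 in the downstream flank (1.85).

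The PRC2 genes differed from each other. SUZ12, a core subunit, had 407 bp of H3K4me3 over exon 1 (6.30) and no H3K27ac nearer than 70.7 kb. EZH2, the catalytic subunit, had 256 bp of H3K4me3 (2.97) and 236 bp of H3K27ac (2.16), both intronic, and it was the only gene of the 10 with both marks whose intervals shared no base. EED, which binds methylated lysine 27, had neither mark at the outer start or at the canonical start 43541 bp further on, where an H3K4me3 interval (311 bp, 2.12) lay just outside the window.

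Of the 10 starts with both marks, 9 (90%) had intervals that shared bases, against 83.6% of all such genes. The shared length ran from 62 bp at HDAC3 to 637 bp at KDM5B. Centres of the 36 H3K4me3 intervals at the starts lay downstream in 26 cases (72.2%, against 70.3% over all genes), with a median position of 318.5 bp. For 17 H3K27ac intervals the number was 11 (64.7%, against 65.8%) and the median 319.5 bp. The start itself lay inside an H3K4me3 interval at SETD1B, KDM5B and KAT6B, 3 of 24 marked starts (12.5%, against 8.64% over all genes), and inside an H3K27ac interval at HDAC3 alone among these 49 genes. In their position the intervals were like those of all genes.

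**Figure D4:**
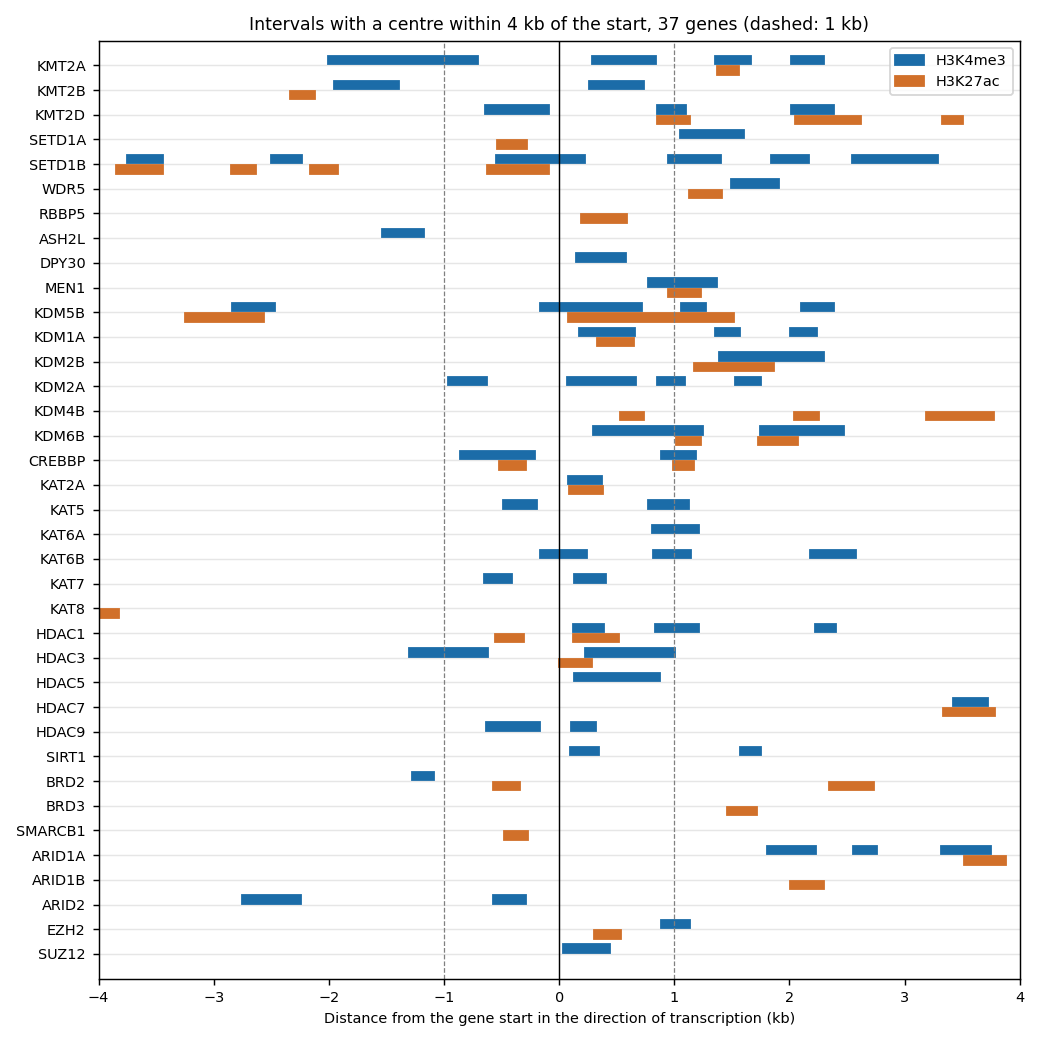
H3K4me3 (blue) and H3K27ac (orange) intervals with a centre within 4 kb of the gene start, for the 37 of 49 genes that have any, drawn to scale against distance from the start in the direction of transcription (x axis, kb), with dashed lines at 1 kb. Of the intervals that reach within 1 kb of the start, most have a centre downstream of it. WDR5, KDM2B, HDAC7, BRD3, ARID1A and ARID1B have all of theirs past the downstream dashed line, as has SETD1A for H3K4me3 only. ASH2L and KAT8 have theirs only beyond the upstream dashed line.

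The window decided several calls. Just inside it were the H3K27ac of MEN1 (947 bp from the start) and KMT2D (854 bp) and the H3K4me3 of EZH2 (881 bp), KAT6A (802 bp) and MEN1 (774 bp). Just outside were the H3K27ac of KDM6B (1019 bp) and WDR5 (1128 bp) and the H3K4me3 of SETD1A (1052 bp), BRD2 (1090 bp) and ASH2L (1177 bp). With the start of the canonical transcript in place of the outer end, H3K4me3 marked 28 starts (57.1%, against 41.3% of all genes) and H3K27ac 19 (38.8%, against 25.2%). Both marks were then found at 13 (26.5%, against 20.4%) and neither at 15 (30.6%, against 53.8%). SETD1A, WDR5 and ARID1A then had both marks, HDAC2 and HDAC7 H3K4me3, and BRD3 and ARID1B H3K27ac, while HDAC9 lost H3K4me3. With every annotated transcript start, KMT2C, ASH2L, CXXC1, KDM5A, KDM4A, EP300, KAT2B, SMARCA2, SMARCA4 and PBRM1 were the 10 genes that had neither mark.

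Over the gene with 10 kb of flank, H3K4me3 was found at 41 of the 49 genes (83.7%, against 56.8% of all genes) and H3K27ac at 35 (71.4%, against 48.9%). The 49 genes are longer than most, with a median of 64.2 kb against 27.2 kb, and so have more room for intervals. Per 100 kb they had 1.96 H3K4me3 intervals against 1.495 over all genes, and 2.05 H3K27ac intervals against 1.61. No interval of either mark was found over KMT2C, KDM5A, EP300, KAT2B, SMARCA2 and SMARCA4, which are 6 of 49 (12.2%, against 35.3%). These are long genes, from 87.5 to 302 kb.

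The marks differed in where they lay over these genes. The counts that follow were not made for all genes, so they cannot be called particular to these. Of the 125 H3K4me3 intervals, 36 were at the outer start, 29 at another transcript start of the gene, 19 in the gene away from any start and 41 in the flanks. Of the 131 H3K27ac intervals these numbers were 17, 22, 52 and 40. In the gene body away from starts, 7 of the 52 H3K27ac intervals, spread over 15 genes, overlapped H3K4me3. Many flank intervals belonged to neighbours, since 22 of 41 for H3K4me3 and 17 of 40 for H3K27ac lay within 1 kb of the start of another protein-coding gene. The 10.7 score in the flank of KDM2A, at the start of GRK2, is an example.

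KDM2A had the most H3K27ac intervals, 16 over gene and flank. Of these, 11 lay inside the gene in groups at 5.22 to 47.7 kb and at 120 to 129 kb from the start, with scores from 1.61 to 4.32, and 0 lay within 1 kb of the start. HDAC4, a class IIa deacetylase, came next with 12, and 0 H3K4me3 intervals. All 12 lay in introns, with centres 88.6 to 155.6 kb from the start. The strongest, 381 bp at chr2:240199446-240199826, had a score of 7.74 and the next, 522 bp at chr2:240185435-240185956, 5.23. Among members of at least 100 kb, KDM2A and HDAC4 were 2 of 17 (11.8%) with 10 or more H3K27ac intervals, compared with 177 of 3666 such genes in all (4.83%).

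SETD1B followed with 8 H3K27ac intervals and had the most H3K4me3, 11. Apart from the intervals at the start, 5 of the H3K4me3 and 6 of the H3K27ac intervals lay in the upstream flank. With the start of RHOF within 1 kb of that of SETD1B, these flank intervals cannot be assigned to SETD1B alone. The strongest H3K27ac interval of SETD1B (322 bp, 5.44) was not in this flank but intronic, 7749 bp downstream of the start, over a weak H3K4me3 interval (1.69). HDAC5, KDM2B and KDM6B each had 7 H3K27ac intervals. In KDM2B, 5 of them lay in introns with centres 110 to 116 kb from the start, the strongest with a score of 5.50, beside an H3K4me3 interval of 5.22. After SETD1B, the most H3K4me3 intervals were found at KDM2A and ARID1A (7 each) and at KMT2A and KDM6B (6 each). In ARID1A 1 of the 7 was a 1192 bp interval in the downstream flank, at the start of PIGV.

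**Figure D5:**
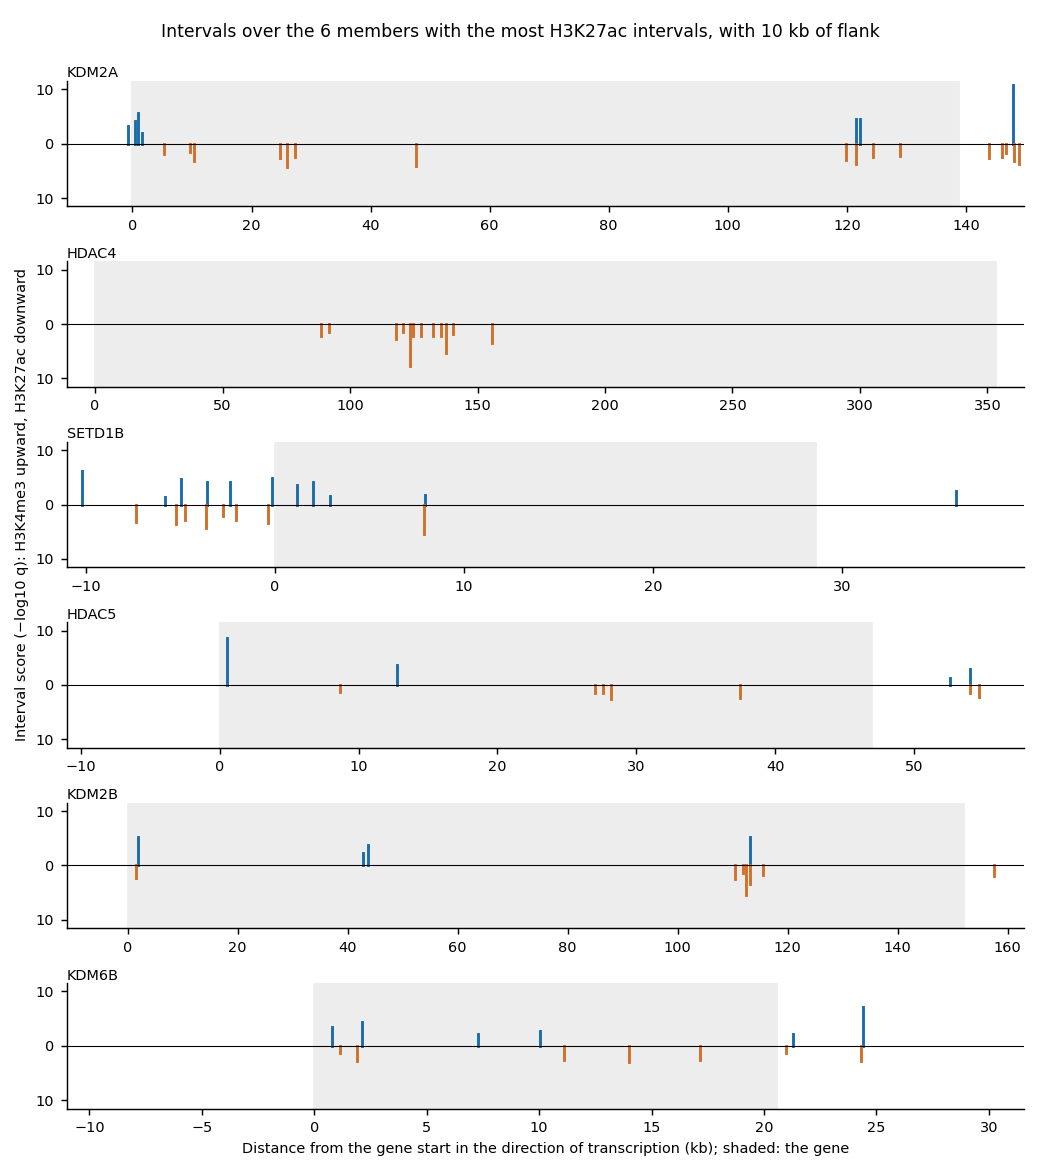
Score (−log10 q) of each H3K4me3 interval (blue, upward) and H3K27ac interval (orange, downward) along the 6 genes with the most H3K27ac intervals, against distance from the start in kb, with the gene shaded and 10 kb of flank on each side. In HDAC4 12 H3K27ac intervals and no H3K4me3 lie in the middle of the gene. In KDM2A H3K27ac lies within the gene and in the downstream flank, and H3K4me3 near the start, farther inside the gene and in that flank.

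The starts around the 49 genes were counted as well. Within 1 Mb of the 20 unmarked genes, 199 of 522 other protein-coding starts (38.1%) had H3K4me3, which is close to the 38.2% of all protein-coding starts. The number was 300 of 557 (53.9%) around the 14 genes with H3K4me3 alone, 233 of 522 (44.6%) around the 10 with both marks and 108 of 260 (41.5%) around the 5 with H3K27ac alone. The unmarked genes varied widely. Marked neighbours were 0 of 4 around SMARCA2, 0 of 2 around HDAC2, 1 of 10 around KDM5A, 1 of 18 around CXXC1 and 10 of 69 around SMARCA4. At the other end they were 9 of 14 around EED, 21 of 37 around EP300, 20 of 36 around KDM2B and 20 of 38 around KDM4A. Other protein-coding starts within 1 kb of a member were those of RHOF, CCDC77, TEX46 (at KDM1A), FAM117A (at KAT7), RELL2, HLA-DMA and an unnamed gene at KDM4A. Neighbouring starts can be counted for more than 1 gene, and the part of the neighbourhood in the calls was not tested.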

How the data were processed

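H3K4me3 and H3K27ac were profiled in 1 library each of untreated H2087 cells, with an input library. Per the submitters' notes, the authors used bcl2fastq 1.8.4, Bowtie 1.1.1 (hg19), SAMtools 1.2, Picard 1.118, MACS2 2.1.0 and ChIPseeker 1.6.6. The calling threshold is not given in the sources used here, nor is whether the input served as control. The deposited lists hold interval positions and a value without header, taken to be a −log10 q per summit from the authors' MACS2 run, since its minimum lies near 1.30, the value at a q of 0.05. The 20282 H3K4me3 and 25275 H3K27ac entries were reduced to distinct intervals with the highest score. Depth is unknown, and no interval or limit that needs it is given.

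Intervals were compared in Python 3.11.15 (numpy 2.4.6, matplotlib 3.10.9) with GENCODE release 44 genes on hg19, with starts and canonical transcripts as annotated, and positions are 1-based. The overlap functions were tested on simulated intervals. Exon numbers refer to the canonical transcript. With 1 library per mark no test was made, and counts are set beside the same count over all protein-coding genes.

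The members, the role groups, the list of 132 other chromatin genes, the markers and the motifs were chosen with earlier results of these data known. Values were given for every member with neither mark or with H3K27ac alone, the highest scores, longest lengths and most intervals for each mark, the members nearest the window edge and the highest H3K4me3 score of each role. Some listed genes are not reported here by name. Alternatives changed the window, the start, the flank and the score threshold.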

Additional observations from a re-analysis of the deposited data

How the results depend on the processing

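No paired analysis was possible because there was only 1 library per mark, and for the same reason none could be left out. For 8 results, 44 alternative values were computed, of which 33 lay within a factor of 1.5 of the reported value and 11 did not. With only scores of at least 5, H3K4me3 marked 11 starts and H3K27ac 1, both marks were found at 1 start, that of KDM5B, and neither at 38, and over gene and flank H3K4me3 was found at 20 and H3K27ac at 7 genes. When only scores at or above the median of the list were kept, H3K27ac marked 9 starts (18.4%, against 14.9% of all genes). With every transcript start, H3K27ac was found at 29 genes (59.2%, against 30.7% of all genes). Both marks, not always at the same start, were found at 25 (51.0%, against 25.3%) and neither at 10 (20.4%, against 49.2%). A window of 3 kb gave both marks at 17 starts (34.7%, against 24.3%). Each of these settings either removes intervals or widens what counts as a start, which moves the counts in the direction seen. The shares of all genes moved as well. With scores of at least 5 they were 10.7% for H3K4me3, 3.53% for H3K27ac, 1.56% for both and 87.3% for neither, and over gene and flank 19.1% and 9.45%.

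The unknown depth limits every statement on a gene without a mark, and without replicates the scores of neighbouring ranks cannot be told apart.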

Other observations

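Other genes of the chromatin machinery were counted in the same way, in 5 lists with 132 genes in all. H3K4me3 marked 79 of these starts (59.8%) and H3K27ac 47 (35.6%). Both marks were found at 41 (31.1%), H3K4me3 alone at 38, H3K27ac alone at 6 (4.55%) and neither at 47 (35.6%). Among the 49 genes H3K4me3 marked 49% and H3K27ac 30.6%, and among all protein-coding genes 38.2% and 23.6%. Both marks were found at 20.4% of the 49 and 18.6% of all genes, and neither at 40.8% and 56.8%. H3K27ac alone was found at 10.2% of the 49 and 4.99% of all genes. For each mark, a share above that of all genes was thus not particular to the 49 genes. The list of acetylation enzymes and readers had both marks at 15 of 34 starts and neither at 7. The Polycomb list had both marks at 11 of 26 starts and neither at 7. In the list of H3K4 methylation genes, both marks were found at 1 of 14 and neither at 7. The list of other histone methylation genes had both marks at 8 of 28 and neither at 13, and the remodellers at 6 and 13 of 30. Of the 10 listed genes on chromosome X, KDM6A had weak intervals of both marks (2.21 and 2.16), KDM5C had H3K4me3 alone (1.34), and 8 had neither, on a chromosome where H3K4me3 marked 30 of 869 starts.

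Close relatives among the 49 genes were set side by side, a grouping made after their values were seen. KMT2D, KDM5B, CREBBP and KAT2A had both marks at the start, and their relatives KMT2C, KDM5A, EP300 and KAT2B had no interval of either mark over gene and flank. HDAC1 had both marks, whereas HDAC2 had H3K4me3 only at its canonical start. Among the demethylases, KDM4B had H3K27ac alone and KDM4A neither mark, and KDM2A had H3K4me3 alone and KDM2B neither. KDM2B had intervals of both marks just outside the window. At the outer start SETD1B had both marks and SETD1A H3K27ac alone, and BRD2 had H3K27ac alone and BRD3 neither. At the canonical start SETD1A also had both marks and BRD3 H3K27ac alone, so neither pair differed there. ARID1A and ARID1B both had neither mark at the outer start, but at the canonical start ARID1A had both marks and ARID1B H3K27ac alone. KMT2A and KMT2B had H3K4me3 alone, as did KAT6A and KAT6B, and SMARCA2 and SMARCA4 both lacked any interval. No test was possible with 1 library per mark.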
